A study of Mus musculus with 17 samples.

Results

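The change in RNA levels shared by 3 dominant-negative chromatin remodelers was measured in 3134 cells, a line labelled as mouse mammary epithelium, from 12 of the 17 arrays of the study. The 6 arrays of induced cells were compared with the 6 arrays of repressed cells with the line as a block, which gives 1 common induction effect, and the arrays were chosen by their titles alone. The induced groups were dnBrg1, dnChd4 and dnSnf2h cells kept without tetracycline for 48 h, with 2 arrays each. The repressed groups were dnBrg1, dnChd4 and dnSnf2h cells kept for the same 48 h in tetracycline, also with 2 arrays each. All 6 groups descend from 3134Tet cells, which hold a tetracycline transactivator, and each line carries in addition a stably integrated, Flag-tagged dominant-negative form of 1 remodeler beside the cells' own gene. Stocks of every line were kept in 5 µg/ml tetracycline, and the experiment itself was run in serum stripped with charcoal and dextran. Removing the drug switches on the transactivator as well as the dominant-negative protein, and no array of the control line enters this comparison, so effects of the drug's absence, of the transactivator and of the remodelers cannot be told apart here. The labels do not say whether a line is 1 clone, or whether replicate arrays stem from different cultures. The p-values therefore measure the spread between these arrays alone, and the part of it between replicates may be technical. In the common fit that spread also includes differences of induction between the lines.

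Chromatin remodelers are ATP-driven motors that slide, remove or exchange nucleosomes and so open or close DNA to transcription factors. Brg1, encoded by Smarca4, is a motor of SWI/SNF complexes, Chd4 is a motor of NuRD, which also holds histone deacetylases, and Snf2h, encoded by Smarca5, is a motor of ISWI complexes. A dominant-negative motor is commonly one that still joins its complex but cannot work, so that it competes with the normal protein.

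Each value is a log2 signal of a probe set as deposited, and each change is the mean of induced minus the mean of repressed arrays. A gene is called when its Benjamini-Hochberg adjusted p from limma is under 0.05 over all 19938 genes tested. Array medians lay between 5.51 and 5.63, replicate arrays correlated with r between 0.994 and 0.998 across genes, and the SD of the difference between replicates ran from 0.125 to 0.237, where the highest belonged to repressed dnSnf2h cells. The array closest to each of the 12 was always of the same state, induced or repressed, and for 9 of them also of the same line. The defining epithelial marker Epcam read at most 4.19 in induced and at most 4.19 in repressed cells, below the 4.76 that bounds the dimmest 30% of genes, and Cdh1 read between 5.04 and 5.16 in induced and between 5.05 and 5.24 in repressed cells. Vim, a mesenchymal filament gene, read between 12.29 and 12.69 in induced and between 12.71 and 12.93 in repressed cells. Other epithelial markers read above 4.76. Krt8 read 6.22 to 6.42 in induced and 6.19 to 6.48 in repressed cells, and Krt18 5.56 to 5.80 and 5.46 to 5.91. The basal keratin gene Krt14 read 5.82 to 7.78 and 7.24 to 9.02, and Gata3 7.89 to 9.18 and 8.03 to 9.44, induced first. Of 16 luminal markers 5 had means below 4.76 in both states. The markers are thus mixed, and the epithelial name is taken from the labels. Ptprc of leukocytes, Pecam1 of endothelium, Adipoq of adipocytes and the milk gene Csn2 all stayed below 4.76 in both states. Cdh5, another endothelial gene, read up to 8.33 in induced and up to 8.12 in repressed cells and is described at the end. In whole cultures, fewer cells of a type and less RNA per cell cannot be told apart, which applies to every gene group below.

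Induction changed the RNA of many genes in the same direction in all 3 lines. In the common fit 5734 genes were called, which is 28.8% of those tested, with 3182 higher (16%) and 2552 lower (12.8%) in induced cells. Most changes were small. The median change was 0.35 among the genes called higher and -0.33 among those called lower, against -0.03 over all genes, and 995 calls (4.99%) reached 1.5-fold, 555 of them higher and 440 lower. At 2-fold 90 were higher and 50 lower, and at 4-fold 5 were higher and 2 lower. All 6 induced arrays lay above all 6 repressed arrays for 1277 genes (6.4%) and below them for 959 (4.81%), although levels also differed between lines. Within every line, both induced arrays lay above both repressed arrays for 2425 genes (12.2%) and below them for 1907 (9.56%).

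The lines shared most of this effect. Of the sum of squares over all genes, line held 38.2%, the common induction 36.7%, the difference of induction between lines 8.84% and the spread between replicates 16.26%. Of the 5734 called genes, 5569 (97.12%) had the same sign in all 3 lines, against 51.86% of all genes. The other 165 had 1 line of opposite sign, which was itself called in that direction for 0 genes. These genes were selected by a common change in the same arrays, which favours equal signs, so this agreement is no separate support. Taken line by line with 1 mean per group, dnBrg1 gave 1600 genes higher (8.02%) and 1241 lower (6.22%), dnChd4 2231 higher (11.2%) and 1361 lower (6.83%), and dnSnf2h 1841 higher (9.23%) and 1663 lower (8.34%). The 3 lists held 1534 genes in common with 1 direction (7.69%), 923 of them higher (4.63%) and 611 lower (3.06%). Another 1218 genes were called in the common fit and in no single line. The change of each line comes from its own arrays, but the spread of a gene was pooled over the arrays of all 3 lines. A gene with a small pooled spread is favoured in all 3 lists, so their overlap is not one of independent lists. Across genes, which are not independent, the changes correlated with Pearson r of 0.672 between dnBrg1 and dnChd4, 0.690 between dnBrg1 and dnSnf2h and 0.772 between dnChd4 and dnSnf2h, with the array surface and the medium shared by all points.

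**Figure D1:**
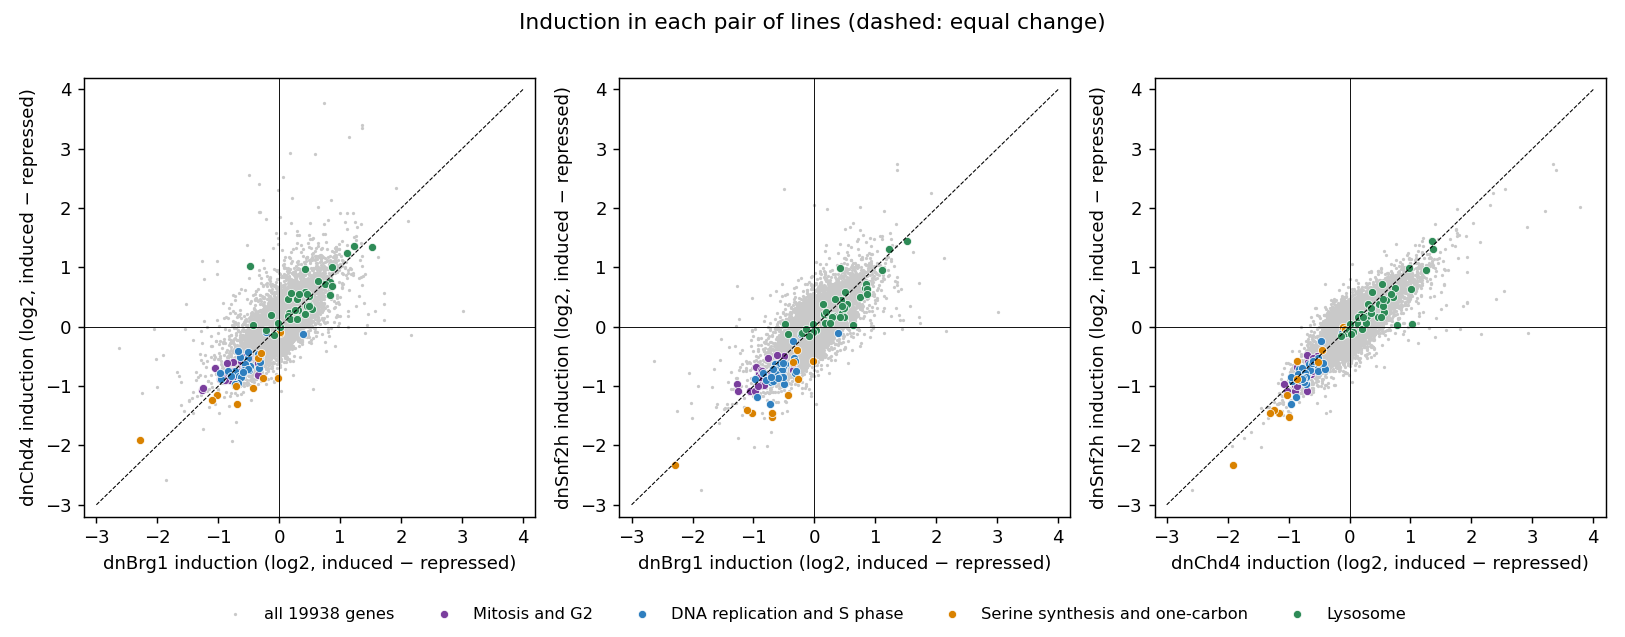
Change on induction (log2, induced minus repressed) in 1 line against another for all 19938 genes (grey), with 4 gene lists in colour and a dashed line for equal change. Mitosis, replication and serine synthesis genes lie mostly at the lower left and lysosome genes mostly at the upper right of all 3 panels.

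Each line was also held out and compared with calls made from the other lines alone. Of 4772 genes called from dnChd4 and dnSnf2h arrays, 4408 (92.4%) moved in the same direction in dnBrg1 cells, against 70.3% of all genes. Of 4031 genes called from dnBrg1 and dnSnf2h arrays, 3864 (95.9%) moved in the same direction in dnChd4 cells, against 71.1% of all genes. Of 5158 genes called from dnBrg1 and dnChd4 arrays, 4861 (94.2%) moved in the same direction in dnSnf2h cells, against 69.2% of all genes. The line left out was then tested on its own 4 arrays. The dnBrg1 line passed in the same direction for 2200 of these genes (46.1%), against 14.7% of all genes passing in either direction, and in the opposite direction for 23. The dnChd4 line passed in the same direction for 2761 (68.5%), against 20.9% of all genes, and in the opposite direction for 7. The dnSnf2h line passed in the same direction for 1337 (25.9%), against 7.26% of all genes, and in the opposite direction for 1.

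**Figure D2:**
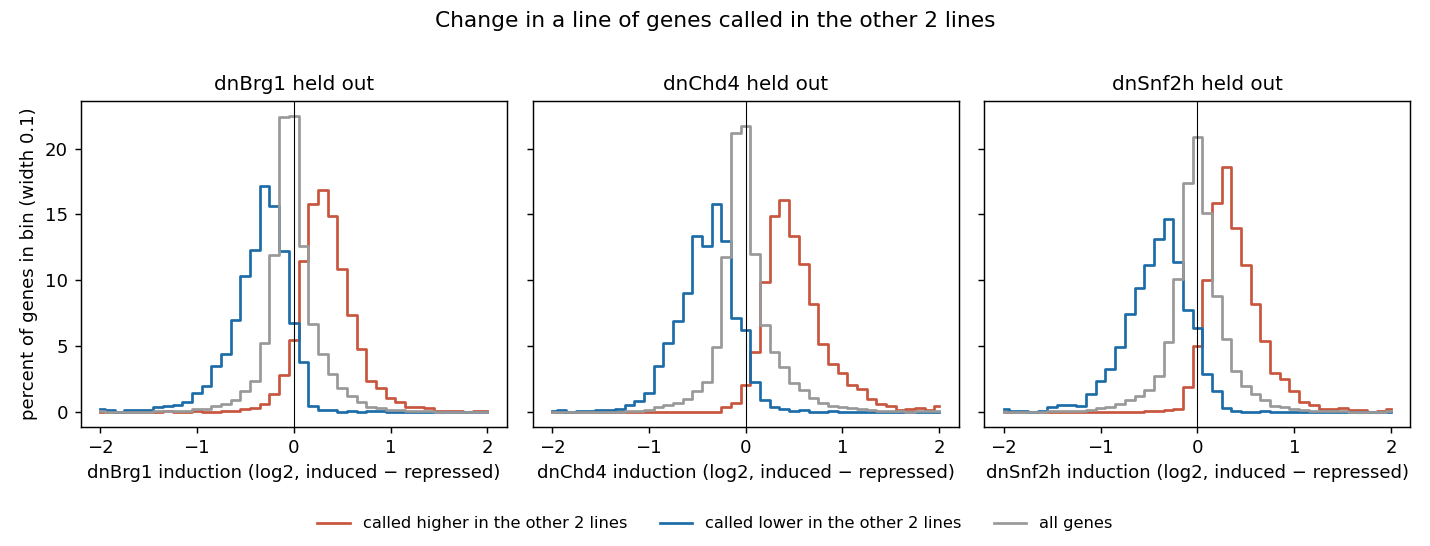
Distribution of the change in the line left out (log2, induced minus repressed, in bins 0.1 wide) for genes called higher (red) or lower (blue) in the other 2 lines and for all genes (grey). The red curves lie mostly above 0 and the blue curves mostly below it, with 92.4% (dnBrg1), 95.9% (dnChd4) and 94.2% (dnSnf2h) of the genes on the side given by the other lines.

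The largest common rises were those of Adgrg1 and Aldh1a1. Adgrg1, an adhesion G protein-coupled receptor, read 8.25 and 8.29 in induced against 7.01 and 6.81 in repressed dnBrg1 cells, 10.66 and 10.67 against 7.39 and 7.25 in dnChd4 cells, and 10.48 and 10.40 against 7.62 and 7.76 in dnSnf2h cells, again induced first. All 6 induced arrays were above all 6 repressed ones. Its common rise was 2.48 (SE 0.220; adjusted p = 5.88e-07). Aldh1a1, a retinaldehyde dehydrogenase, rose by 2.46 (SE 0.229), and its induced arrays ran from 7.57 to 9.34 against 5.20 to 6.71 in repressed cells. Both genes also differed in the size of the rise between lines, as described further on.

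Tcp11l2 and Kdm5b also rose in all 3 lines. Tcp11l2 read 6.96, 7.37 and 7.73 (lowest, median and highest) in induced and 4.85, 5.18 and 5.46 in repressed cells, with no overlap. It rose by 2.17 (SE 0.0878, 4.51-fold; adjusted p = 7.92e-10), with 1.91 in dnBrg1, 2.35 in dnChd4 and 2.26 in dnSnf2h. Kdm5b, a demethylase of lysine 4 of histone H3, read 8.83 and 8.76 in induced against 7.65 and 7.72 in repressed dnBrg1 cells, 8.85 and 8.74 against 7.06 and 6.71 in dnChd4 cells, and 8.72 and 8.66 against 6.90 and 7.42 in dnSnf2h cells. The induced arrays of Kdm5b lay close together, the repressed ones were spread wider and further down, and the rise was 1.52 (SE 0.116, 2.87-fold; adjusted p = 1.54e-07), with 1.11 in dnBrg1, 1.91 in dnChd4 and 1.54 in dnSnf2h. The other genes among the 12 with the largest rises were Mcam, an adhesion molecule (2.18), the glutathione transferase Gstm5 (2.10), the actin-bundling protein Lcp1 (1.73), the RNA helicase Dhx40 (1.69), Tmem120b (1.53), the receptor kinase Grk4 (1.5), the lysozyme Lyz2 (1.48) and the TGF-beta family ligand Gdf11 (1.47). Grk4 read between 5.41 and 6.10 in induced and between 4.08 and 4.8 in repressed cells, where its mean was below 4.76.

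The genes that fell most were led by amino acid transport and one-carbon enzymes. Slc7a11, the cystine importer that feeds glutathione synthesis, read 4.93 and 5.08 in induced against 6.97 and 6.75 in repressed dnBrg1 cells, 6.08 and 6.19 against 8.41 and 9.02 in dnChd4 cells, and 5.37 and 5.61 against 8.21 and 8.28 in dnSnf2h cells. All 6 induced arrays were below all 6 repressed ones, and repressed dnBrg1 cells began lower than the other lines. Slc7a11 fell by 2.40 (SE 0.133, 5.27-fold lower; adjusted p = 1.24e-08). Aldh1l2, the mitochondrial enzyme that oxidises formyl-tetrahydrofolate, read 6.53 and 6.65 in induced against 8.94 and 8.82 in repressed dnBrg1 cells, 8.42 and 8.23 against 10.15 and 10.33 in dnChd4 cells, and 7.54 and 7.93 against 9.95 and 10.17 in dnSnf2h cells. Its fall of 2.18 (SE 0.0873, 4.52-fold lower; adjusted p = 7.92e-10) was a change of -2.29 in dnBrg1, -1.91 in dnChd4 and -2.33 in dnSnf2h. Induced dnChd4 and dnSnf2h cells still read less than repressed dnBrg1 cells.

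The remaining 10 of the 12 largest falls were smaller. Trib3, a pseudokinase induced by amino acid stress, changed by -1.62 (SE 0.108), with induced arrays between 6.96 and 7.47 and repressed arrays between 8.51 and 9.5. The small nucleolar RNA host gene Snhg5 changed by -1.54 (SE 0.0718), with 7.60 to 8.17 in induced and 9.15 to 9.55 in repressed cells. The chemokine genes Cxcl5 (-1.59) and Cxcl3 (-1.57), the copper-carrying oxidase Cp (-1.52), the glycine transporter Slc6a9 (-1.49), the neutral amino acid transporters Slc6a15 (-1.43) and Slc1a5 (-1.37), the spindle protein Aspm (-1.38) and the transcription factor Tfap4 (-1.36) completed the list. Tfap4 was very even, with 6.13 to 6.46 in induced and 7.61 to 7.73 in repressed cells.

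**Figure D3:**
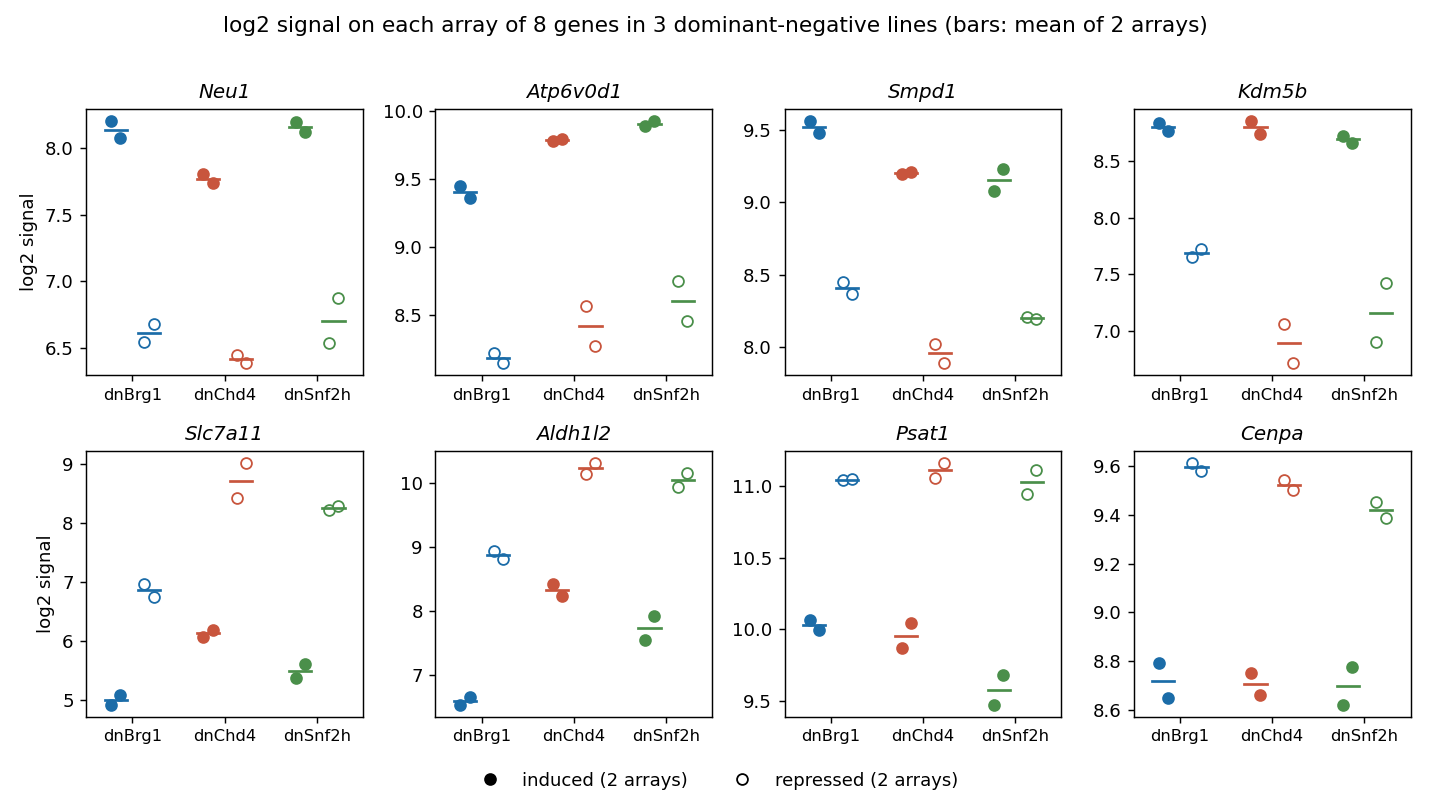
log2 signal of 8 genes on each of the 12 arrays by line (filled, induced; open, repressed; bars, mean of 2 arrays; each panel has its own scale). Neu1, Atp6v0d1, Smpd1 and Kdm5b are higher and Slc7a11, Aldh1l2, Psat1 and Cenpa lower on both induced arrays of every line.

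Genes of cell division fell together. Of 29 measured genes of mitosis and G2, 29 were called lower and 0 higher, with a median change of -0.78, against 12.8% of all genes called lower and a median of -0.03. All 12 arrays were apart for 28 of the 29, against 4.81% of all genes. The medians were -0.76 in dnBrg1, -0.74 in dnChd4 and -0.78 in dnSnf2h. The test for a difference between lines called 0 of the 29 genes, near the 1.1% it called of all genes, so that count says nothing particular of the list. Cenpa, the histone H3 variant of centromeres, read 8.62, 8.71 and 8.79 (lowest, median and highest) in induced and 9.39, 9.52 and 9.62 in repressed cells. The groups did not overlap, and Cenpa fell by 0.81 (SE 0.0545; adjusted p = 5.20e-08). The mitotic kinase gene Aurkb changed by -0.88 (SE 0.0615), with induced arrays between 8.44 and 8.81 and repressed ones between 9.51 and 9.61. Cdc20, an activator of the anaphase-promoting complex, changed by -0.90 (SE 0.0633), with 7.82 to 8.21 in induced and 8.63 to 9.19 in repressed cells.

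Of 30 measured genes of DNA replication and S phase, 28 were called lower and 0 higher, with a median of -0.67 and with all 12 arrays apart for 24. Of all genes 12.8% were called lower, and 4.81% had all induced arrays below all repressed ones. The exceptions were Rrm1 at -0.15 (adjusted p = 0.107) and Ccne1 at 0.05 (adjusted p = 0.734). Tk1, thymidine kinase, fell by 0.87 (SE 0.0588; adjusted p = 5.20e-08), with 8.25 to 8.64 in induced and 9.20 to 9.45 in repressed cells. Mcm7, a subunit of the replicative helicase, changed by -0.84 (SE 0.0662), and the DNA polymerase delta gene Pold1 by -1.01 (SE 0.0826). The medians were -0.57 in dnBrg1, -0.71 in dnChd4 and -0.74 in dnSnf2h. Among 19 cyclins, CDK inhibitors and pocket proteins, 3 were called higher and 8 lower, against 16% and 12.8% of all genes. The retinoblastoma gene Rb1 rose by 0.67 (SE 0.0883) and the D-type cyclin gene Ccnd3 by 0.59 (SE 0.0567). The G1 kinase gene Cdk6 (-0.77), the pocket protein gene Rbl1 (-0.75) and the E2F repressor gene E2f8 (-0.80) fell. Among 7 measured histone genes 5 were lower, led by the variants H2ax (-0.60) and H2az1 (-0.53), and H2bc4 alone was higher, at 1.36. H2bc4 has near-identical copies, so which copy its probe set reports is uncertain.

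Promoters of 4 of these genes are shown because many cell cycle genes are known to share short promoter motifs. The windows are RefSeq promoters of build GRCm38.p6, and 15614 of the genes tested had 1 window of 300 bases. The letters TTTGAA, a cell cycle homology region (CHR), were found on either strand in 20 of the 26 mitosis promoters matched, against 15.17% of all promoters, 17.26% of those of genes called lower and 9.33% of those of genes called higher. An E2F motif, TTTCCCGC or TTTGGCGC on either strand, was in 9 of the 24 replication promoters matched, against 2.32% of all, 4.96% of lower and 2.28% of higher genes. CCAAT was in 20 of the 26 mitosis promoters, against 38.23% of all. These are matches of letters in a window and show no binding. In the stretches below, which run from 150 bases before to 25 after the start, capitals mark the CHR in Cenpa (chr5:30666736-30666910, + strand, called lower) and Cdc20 (chr4:118437319-118437493, - strand, called lower), and the E2F motif in Mcm5 (chr8:75109359-75109533, + strand, change -0.74) and Mcm6 (chr1:128359681-128359855, - strand, change -0.80), helicase subunits that both passed.
Cenpa: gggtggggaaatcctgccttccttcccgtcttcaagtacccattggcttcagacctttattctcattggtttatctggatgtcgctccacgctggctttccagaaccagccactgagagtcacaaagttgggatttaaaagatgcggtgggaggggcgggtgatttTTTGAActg
Cdc20: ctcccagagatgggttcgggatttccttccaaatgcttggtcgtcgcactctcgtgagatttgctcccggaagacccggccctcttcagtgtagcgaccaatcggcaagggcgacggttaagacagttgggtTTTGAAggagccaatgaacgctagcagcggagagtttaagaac
Mcm5: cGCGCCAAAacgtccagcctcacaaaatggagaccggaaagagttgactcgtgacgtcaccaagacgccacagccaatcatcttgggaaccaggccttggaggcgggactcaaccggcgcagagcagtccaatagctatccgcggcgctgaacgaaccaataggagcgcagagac
Mcm6: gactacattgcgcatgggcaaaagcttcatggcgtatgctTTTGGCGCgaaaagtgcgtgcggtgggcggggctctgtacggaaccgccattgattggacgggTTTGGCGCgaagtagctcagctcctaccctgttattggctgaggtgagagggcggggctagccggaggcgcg

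Genes of amino acid supply fell as well, with smaller medians in dnBrg1 cells. ATF4 is the transcription factor that switches on amino acid import, serine synthesis and tRNA charging when amino acids run short. Of 12 measured genes of serine synthesis and one-carbon metabolism, 10 were called lower and 0 higher, against 12.8% of all genes called lower. The medians of these genes were -0.39 in dnBrg1, -0.93 in dnChd4 and -1.02 in dnSnf2h. Psat1, the aminotransferase of serine synthesis, read 10.07 and 10.00 in induced against 11.04 and 11.05 in repressed dnBrg1 cells, 9.87 and 10.04 against 11.06 and 11.17 in dnChd4 cells, and 9.47 and 9.68 against 10.95 and 11.12 in dnSnf2h cells. The groups did not overlap, and Psat1 fell by 1.21 (SE 0.0742; adjusted p = 2.80e-08). Aldh18a1, the first enzyme of proline synthesis from glutamate, fell by 1.25 (SE 0.0740; adjusted p = 2.20e-08).

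Of 18 genes of the ATF4 and amino acid stress list, 11 were called lower and 1 higher, against 12.8% and 16% of all genes. Their medians were -0.07 in dnBrg1, -0.59 in dnChd4 and -0.65 in dnSnf2h. The mean log2 level of the list was 7.47 and 7.51 in induced against 7.68 and 7.74 in repressed dnBrg1 cells, 7.50 and 7.54 against 7.94 and 8.14 in dnChd4 cells, and 7.39 and 7.40 against 7.92 and 7.95 in dnSnf2h cells. Repressed dnBrg1 cells thus started below the other repressed lines, while the induced arrays of all lines lay close together. Of the 18 genes only Ddit4 passed the test for a difference between lines, which says nothing of the list as a whole. Atf5, a transcription factor of the same family, changed by -0.89 (SE 0.0610), the alanine aminotransferase gene Gpt2 by -0.81 (SE 0.0820), and Ppp1r15a, a phosphatase subunit that restores translation after stress, was the 1 gene that rose, by 0.55 (SE 0.0737). Atf4 itself, singled out after its value was seen, changed by -0.68 (SE 0.0744; adjusted p = 4.41e-06).

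Of 18 amino acid transporters 9 were called lower and 2 higher, against 12.8% and 16% of all genes. The count of higher calls is thus not above the share of all genes. The 2 that rose, Slc36a1 at 0.64 (SE 0.0951) and Slc36a4 at 0.58 (SE 0.0776), belong to the family of proton-coupled amino acid transporters, and Slc36a1 is known from lysosomal membranes. Of 18 cytosolic aminoacyl-tRNA synthetases 15 were called lower and 0 higher, with a median of -0.45, against the same 12.8% of all genes called lower. Vars for valine read between 8.83 and 9.09 in induced and between 9.55 and 10.02 in repressed cells, and changed by -0.83 (SE 0.0617). Gars for glycine (-0.78, SE 0.0586) and Cars for cysteine (-0.89, SE 0.0738) did not overlap between the groups either. The motif TGATGNAAT, the amino acid response element, was in 1 of 17 ATF4 list promoters and 2 of 11 synthetase promoters. It was in 0 of 11 serine synthesis and 0 of 13 amino acid transporter promoters. The share was 0.72% of all promoters, 0.35% of lower and 0.23% of higher genes, so the motif was not more frequent among the genes that fell.

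Genes of ribosome production followed. Of 24 measured genes of ribosome biogenesis, with Myc among them, 21 were called lower and 0 higher, against 12.8% of all genes called lower. The median of the list was -0.45, with -0.24 in dnBrg1, -0.54 in dnChd4 and -0.55 in dnSnf2h. Myc, a transcription factor that drives growth, read 9.14 and 9.19 in induced against 9.99 and 9.73 in repressed dnBrg1 cells, 8.65 and 8.89 against 9.77 and 10.09 in dnChd4 cells, and 8.22 and 8.45 against 9.56 and 9.70 in dnSnf2h cells. All induced arrays were below all repressed ones, and Myc fell by 1.05 (SE 0.0981; adjusted p = 9.79e-07). Dkc1, the pseudouridine synthase of box H/ACA particles, changed by -1.05 (SE 0.0688) and Nop56, a core protein of box C/D particles, by -0.91 (SE 0.0657). The 2 measured hosts of small nucleolar RNAs fell too. Gas5 changed by -0.57 (SE 0.0620), with 11.67 to 12.42 in induced and 12.31 to 12.88 in repressed cells, which overlap across lines and not within them, beside Snhg5 above.

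In the opposite direction, genes of lysosomes and autophagy rose. Lysosomes are acidified by a proton pump, the V-ATPase, and break down lipids, sugars and proteins, including what autophagosomes bring to them. Of 36 measured lysosome genes, 27 were called higher and 0 lower, with a median of 0.34, against 16% of all genes called higher. The medians were 0.37 in dnBrg1, 0.42 in dnChd4 and 0.22 in dnSnf2h, and all 12 arrays were apart for 14, against 6.4% of all genes. Neu1, a sialidase, read 8.20 and 8.07 in induced against 6.54 and 6.68 in repressed dnBrg1 cells, 7.80 and 7.74 against 6.45 and 6.39 in dnChd4 cells, and 8.19 and 8.12 against 6.53 and 6.88 in dnSnf2h cells. The 6 induced arrays of Neu1 stood clear of the 6 repressed ones, and it rose by 1.44 (SE 0.0646, 2.72-fold; adjusted p = 1.84e-09). Atp6v0d1, a V-ATPase subunit, read 9.36, 9.79 and 9.93 (lowest, median and highest) in induced and 8.15, 8.37 and 8.75 in repressed cells, without overlap. It rose by 1.30 (SE 0.0657; adjusted p = 7.15e-09). Smpd1, the acid sphingomyelinase, rose by 1.11 (SE 0.0599; adjusted p = 1.01e-08), with 9.08 to 9.56 in induced and 7.89 to 8.45 in repressed cells. In 1 member, Cd68, also a macrophage marker, the lines differed (adjusted p of the difference = 0.00189). It was at -0.48 in dnBrg1, 1.03 in dnChd4 and 0.05 in dnSnf2h.

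Of 21 autophagy genes 16 were called higher and 0 lower, with a median of 0.40, against 16% of all genes called higher. Atg12, which is conjugated to Atg5 to build the autophagosome, read between 7.93 and 8.52 in induced and between 7.39 and 7.86 in repressed cells. It rose by 0.67 (SE 0.0534; adjusted p = 2.12e-07). Atg4a, a protease that processes Atg8 proteins, rose by 0.67 (SE 0.0566), and Atg9a, a lipid scramblase of autophagosome precursors, by 0.63 (SE 0.0560). The palindrome TCACGTGA, the core of the CLEAR element found near many lysosome genes, was in 4 of the 30 lysosome promoters matched, against 1.35% of all promoters, 2.84% of higher and 1.32% of lower genes. Capitals mark it in the stretches of Atp6v0d1 (chr8:105566040-105566214, - strand) and of Mcoln1 (chr8:3500369-3500543, + strand), a lysosomal cation channel gene that rose by 0.49 (SE 0.0624), shown as 2 called genes of this list that hold the motif.
Atp6v0d1: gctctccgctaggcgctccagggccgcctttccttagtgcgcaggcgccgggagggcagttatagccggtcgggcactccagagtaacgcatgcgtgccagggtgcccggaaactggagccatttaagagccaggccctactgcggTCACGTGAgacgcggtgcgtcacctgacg
Mcoln1: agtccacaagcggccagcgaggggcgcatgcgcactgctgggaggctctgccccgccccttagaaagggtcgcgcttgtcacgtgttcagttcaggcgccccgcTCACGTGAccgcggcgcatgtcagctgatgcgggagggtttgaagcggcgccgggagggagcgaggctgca

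**Figure D4:**
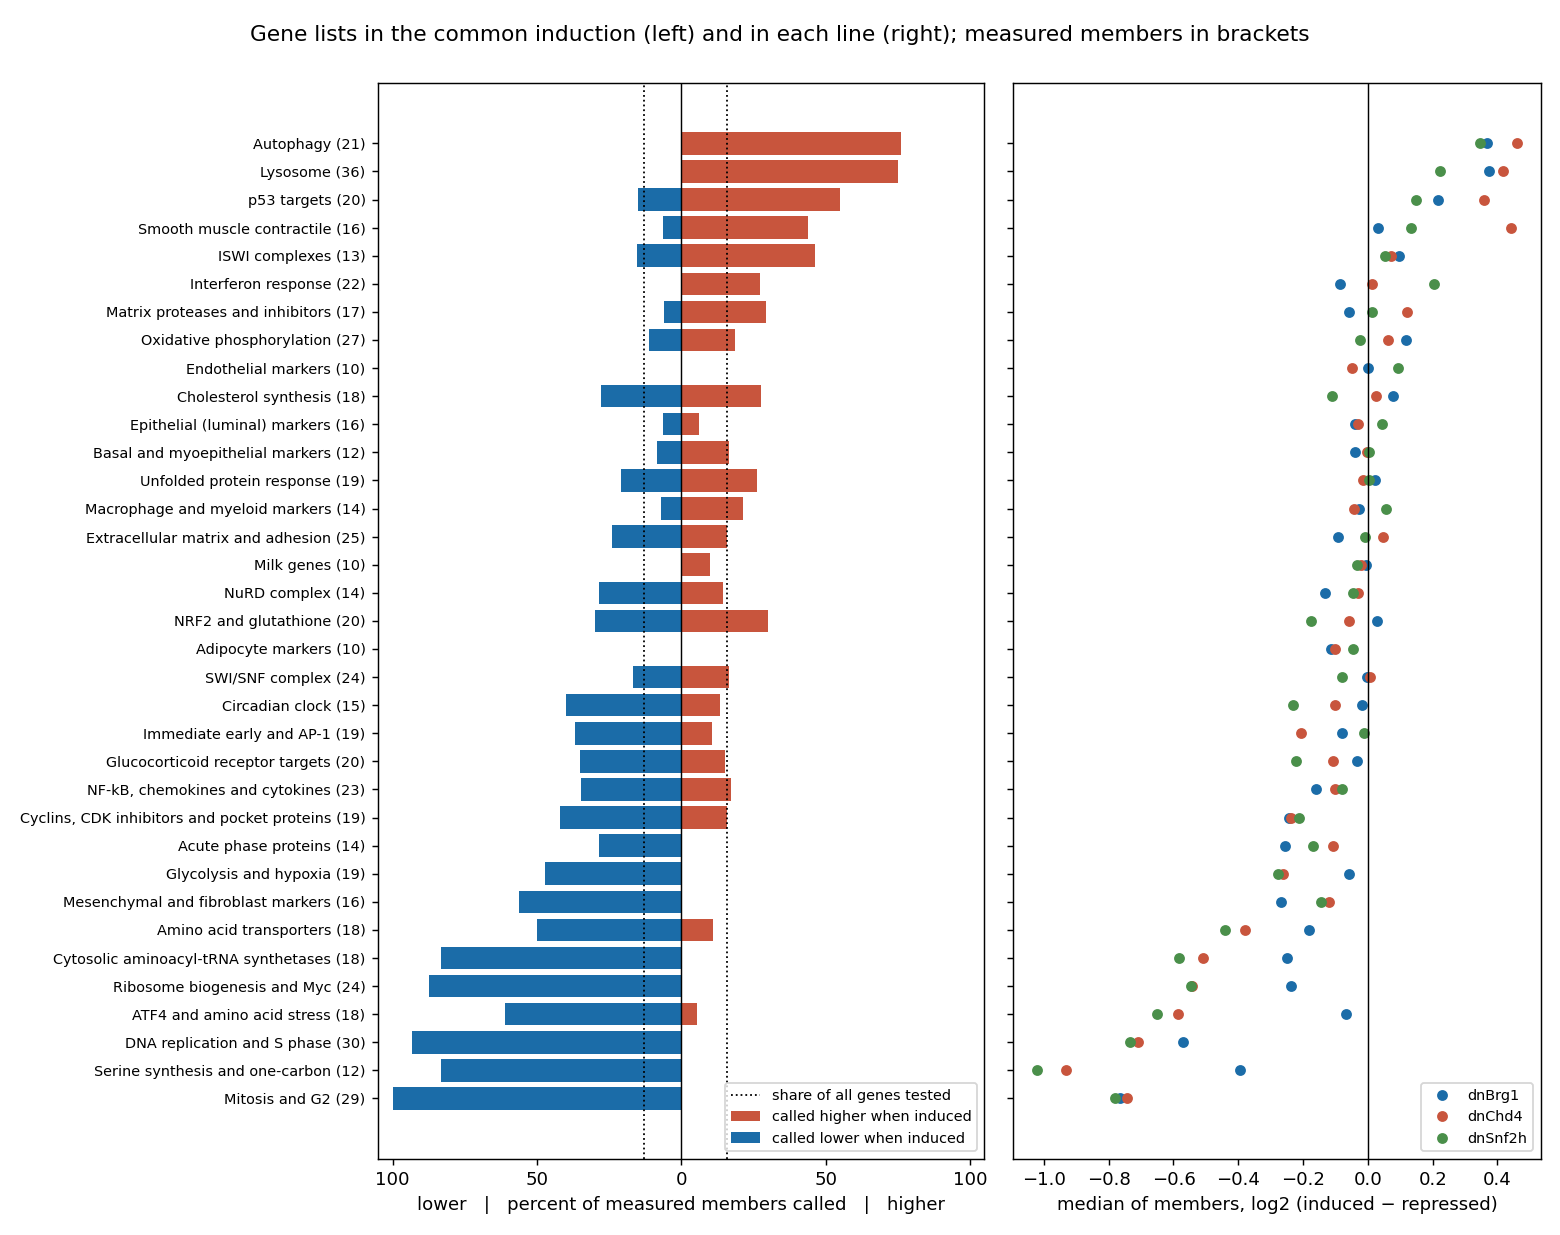
Left, percent of the measured members of each gene list with at least 10 measured called higher (red, to the right) or lower (blue, to the left) in the common fit, with dotted lines at the 16% and 12.8% of all genes. Right, median change of each list in dnBrg1, dnChd4 and dnSnf2h cells (log2, induced minus repressed); the 3 lines lie close together for mitosis and apart for serine synthesis and the ATF4 list.

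Other stress and metabolic groups were mixed, and their counts stand against 16% of all genes called higher and 12.8% called lower. Of 20 p53 targets 11 were called higher and 3 lower, with a median of 0.25. By line, 7 were called higher and 1 lower in dnBrg1 (median 0.22), and 10 and 2 in dnChd4 (0.36). In dnSnf2h 3 were called higher and 4 lower (0.15). The test for a difference between lines called 2 of the 20. Tnfrsf10b, a death receptor gene, rose by 0.97 (SE 0.0744; adjusted p = 1.63e-07), with 8.08 to 8.56 in induced and 7.03 to 7.79 in repressed cells. Mdm2, the ubiquitin ligase of p53, rose by 0.39 (SE 0.0601) and Sesn1, a stress sensor, by 0.47 (SE 0.0746). Gtse1, a G2 protein that restrains p53, changed by -0.43 (SE 0.0678). Of 20 genes of the NRF2 and glutathione list 6 were higher and 6 lower. The transferases Gstm5 (2.10), Gstm2 (0.93, SE 0.0772) and Gstm7 (0.92, SE 0.0679) rose. The glutathione conjugate exporter gene Abcc1 (-0.45), the synthesis subunit gene Gclm (-0.42) and the reductase gene Gsr (-0.39) fell. These transferase genes are similar in sequence, and cross-hybridisation between their probe sets was not tested.

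Of 19 genes of the unfolded protein response 5 rose and 4 fell. Ern1, an endoplasmic reticulum stress sensor, rose by 0.54 (SE 0.0697), and Herpud1, a membrane protein of protein degradation, changed by -0.74 (SE 0.0697). Of 18 genes of cholesterol synthesis 5 rose and 5 fell, and of 27 nuclear genes of oxidative phosphorylation 5 rose and 3 fell. The oxidative phosphorylation counts are near the 16% of all genes called higher and the 12.8% called lower. Of 19 genes of glycolysis and hypoxia 9 were called lower and 0 higher, with a median of -0.17. Ldha, lactate dehydrogenase, changed by -0.41 (SE 0.0540), the kinase gene Pkm by -0.41 (SE 0.0567) and the phosphofructokinase gene Pfkp by -0.57 (SE 0.0748). Of 15 clock genes 2 rose and 6 fell, with Nr1d1 at -0.74 (SE 0.105), Bhlhe41 at -0.66 (SE 0.0656) and Dbp at -0.60 (SE 0.0614), all of them transcription factors.

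Inflammatory genes moved in both directions. Their counts stand against 16% of all genes called higher and 12.8% called lower. Of 23 genes of NF-kB signalling, chemokines and cytokines 4 rose and 8 fell. The NF-kB subunit genes Relb (0.40, SE 0.0563) and Nfkb2 (0.36, SE 0.0530) rose while the neutrophil chemokine gene Cxcl5 read between 7.72 and 9.19 in induced and between 9.96 and 10.29 in repressed cells. Of 14 acute phase genes 4 fell and 0 rose, and for 7 of the 14 both groups were below the dim bound. Saa3 changed by -1.29 (SE 0.179), and Orm3, whose induced mean was below the dim bound, by -0.90 (SE 0.102). Of 22 interferon response genes 6 rose and 0 fell, with Irf7, a transcription factor of the response, at 0.75 (SE 0.0743) and Ddx58, a sensor of viral RNA, at 0.67 (SE 0.0973). Of 20 glucocorticoid receptor targets 3 rose and 7 fell, among them the kinase gene Sgk1 (-0.76, SE 0.0734) and the metallothionein gene Mt1 (-0.64, SE 0.0727), and the transglutaminase gene Tgm2 rose by 0.65 (SE 0.0843). Of 19 immediate early and AP-1 genes 2 rose and 7 fell, with Fosl2, an AP-1 subunit, at -0.99 (SE 0.0895).

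Of 25 genes of matrix and adhesion 4 rose and 6 fell, against 16% of all genes called higher and 12.8% called lower. Lox, a collagen cross-linking oxidase, changed by -1.09 (SE 0.0710), with 8.15 to 9.46 in induced and 9.40 to 10.52 in repressed cells, which overlap across lines and not within them. Vcan, a proteoglycan, changed by -1.06 (SE 0.149), and the integrin gene Itga5 rose by 0.55 (SE 0.0527). Of 16 smooth muscle contractile genes 7 rose and 1 fell, with Tpm2, a tropomyosin, at 0.64 (SE 0.0812). The larger rises of Acta2 and Tagln in that list differed between lines and are given with those differences further on. Of 17 matrix proteases and inhibitors 5 rose and 1 fell, and 6 of the 17 differed between lines.

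Markers of other cell types were counted in the same way, against 16% of all genes called higher and 12.8% called lower. Of 16 mesenchymal and fibroblast markers 9 were called lower and 0 higher, with a median of -0.28. By line, 7 were called lower in dnBrg1 (median -0.27), 2 in dnChd4 (-0.12) and 6 in dnSnf2h (-0.15), and 1 was called higher in dnChd4. Their summed linear level was 11590 to 14110 in induced and 15150 to 17610 in repressed arrays. Snai2, a transcription factor of mesenchymal cells, fell by 1.31 (SE 0.0941; adjusted p = 8.25e-08), with 7.22 to 8.03 in induced and 8.43 to 9.5 in repressed cells, and Vim by 0.33 (SE 0.0604). Of 16 luminal epithelial markers 1 rose and 1 fell, with a summed level of 840 to 1133 in induced and 848 to 1257 in repressed arrays. Of 12 basal markers 2 rose and 1 fell, and 3 of the 12 differed between lines. The 2 that rose were Acta2 (1.46) and Tagln (1.06), whose changes differed between lines. The 1 that fell, the basal keratin gene Krt14, changed by -1.24 (SE 0.0881) and was among the genes picked for an even change across lines. Of 14 macrophage markers 3 rose and 1 fell and 8 were below the dim bound in both states, with a summed level of 478 to 580 in induced and 403 to 469 in repressed arrays, to which Lyz2 contributed its rise of 1.48 while Ptprc and Csf1r stayed dim. Of 10 endothelial and of 10 adipocyte markers limma called 0 in either direction, with 1 endothelial and 2 adipocyte markers at an unadjusted p under 0.05, and of 10 milk genes 1 rose. The part of any other cell type in these results was not tested.

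The remodeler genes themselves were examined. Smarca4 was at 0.05 (SE 0.0635; adjusted p = 0.612) and Smarca5 at -0.17 (SE 0.0668; adjusted p = 0.0656) in the common fit. Chd4 was at 0.52 (SE 0.245; adjusted p = 0.137), with 1.82 in dnChd4, -0.22 in dnBrg1 and -0.04 in dnSnf2h cells. It read 12.27 and 12.27 in induced against 10.56 and 10.35 in repressed dnChd4 cells. A probe set need not detect a transgene, and the Smarca4 and Smarca5 values check neither label. Of 24 SWI/SNF subunits 4 rose and 4 fell, of 14 NuRD subunits 2 rose and 4 fell, and of 13 ISWI subunits 6 rose and 2 fell, against 16% of all genes called higher and 12.8% called lower. The SWI/SNF counts are near those shares. Hdac1, a deacetylase of NuRD, read between 10.83 and 11.05 in induced and between 10.30 and 10.50 in repressed cells and rose by 0.50 (SE 0.0531; adjusted p = 3.16e-06). Chd3, an alternative NuRD motor, rose by 0.49 (SE 0.0588), and Baz2a, an ISWI partner that silences ribosomal DNA, by 0.43 (SE 0.0600). Actl6a, an actin-related SWI/SNF subunit, changed by -0.44 (SE 0.0574) and Baz1b, another ISWI partner, by -0.44 (SE 0.0635).

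Some changes were almost equal in the 3 lines. Among genes called in every line with a common change of at least 1, those with the least relative spread were Atp6v0a1, Atp6v0d1, Neu1 and the ceramidase gene Asah2 on the higher side. On the lower side they were the chromatin protein gene Hmgb3, the spindle motor gene Kif15, Cdca7l and Krt14. Atp6v0a1, a V-ATPase subunit, rose by 1.17 in dnBrg1, 1.21 in dnChd4 and 1.16 in dnSnf2h. Kif15 changed by -1.0 in dnBrg1, -1.05 in dnChd4 and -1.08 in dnSnf2h.

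The induction differed between lines for 220 genes (1.1%), of which 137 were also called in the common fit and 83 were not. For 35 genes 2 lines were called in opposite directions. Csnk1g1, a casein kinase gene, read 10.13 and 10.21 in induced against 7.30 and 7.02 in repressed dnBrg1 cells, 7.52 and 7.42 against 7.24 and 7.17 in dnChd4 cells, and 7.53 and 7.49 against 7.06 and 7.46 in dnSnf2h cells. Its common call (1.17; adjusted p = 0.0154) was 0.254 without the dnBrg1 line and no longer passed. Auts2 was at 2.16 in dnBrg1, -0.13 in dnChd4 and -0.07 in dnSnf2h. Pld4, Ms4a4d and Susd2 rose in dnChd4 cells, by 2.16, 2.41 and 2.92, against -0.33 to 0.46 in the other lines, and their common calls were lost without any 1 of the 4 dnChd4 arrays (0.575 to 0.58 for Pld4, 0.621 to 0.685 for Ms4a4d and 0.716 to 0.804 for Susd2). Those of Ms4a4d and Susd2 were also lost without some arrays of other lines.

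Mcam, Lcp1 and Adgrg1 rose in every line by different amounts, while in dnBrg1 Acta2 was lower and Tagln almost unchanged. Mcam rose by 0.74 in dnBrg1, 3.78 in dnChd4 and 2.02 in dnSnf2h, Lcp1 by 0.58, 2.91 and 1.68, and Adgrg1 by 1.36, 3.34 and 2.75 in the same order of lines. Acta2, smooth muscle actin, was at -0.50 in dnBrg1, 2.56 in dnChd4 and 2.32 in dnSnf2h, and Tagln, a contractile marker, at 0.06, 2.53 and 0.60. The common change of Acta2 no longer passed without the dnChd4 line (0.914; limma adjusted p = 0.164) or without the dnSnf2h line (1.03; adjusted p = 0.151), and that of Tagln without the dnChd4 line (0.326; adjusted p = 0.0598). Under robust eBayes neither passed, at an adjusted p of 0.055 for Acta2 and 0.0622 for Tagln, and Tagln also missed without the line block (0.124). In opposite directions, Sting1, a sensor of cytosolic DNA signals, read 5.52 and 5.64 in induced against 6.71 and 6.50 in repressed dnBrg1 cells, 9.52 and 9.41 against 8.38 and 8.34 in dnChd4 cells, and 8.87 and 9.11 against 8.56 and 8.46 in dnSnf2h cells. Tnnt2, a troponin gene, was at -1.27 in dnBrg1, 1.11 in dnChd4 and 0.69 in dnSnf2h. Mmp19, a matrix protease gene, was at -0.53, 1.38 and 0.52, and Msln, mesothelin, at 0.92, -0.32 and -0.17 in the same order.

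**Figure D5:**
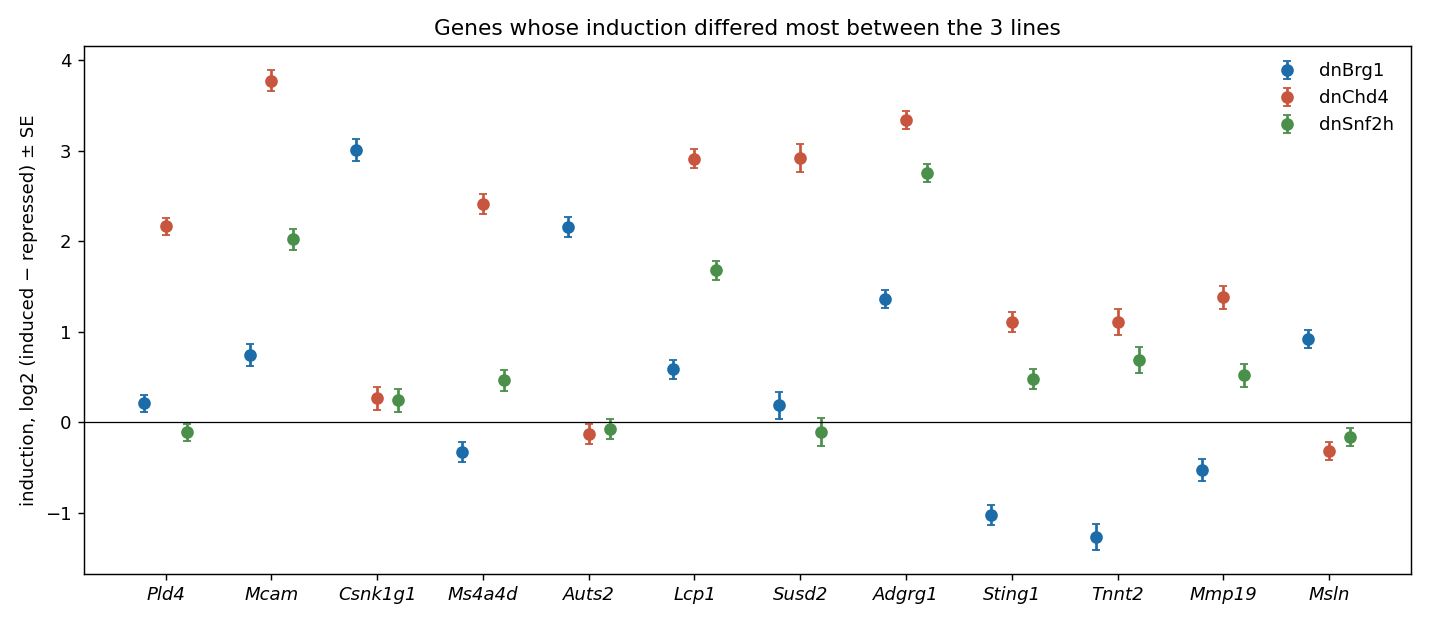
Change on induction (log2, induced minus repressed, with SE) in dnBrg1, dnChd4 and dnSnf2h cells for the 8 genes with the smallest p for a difference between lines and 4 genes called in opposite directions. Csnk1g1 and Auts2 stand out in dnBrg1, and Pld4, Ms4a4d and Susd2 in dnChd4.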

How the data were processed

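RNA from 12 samples was measured on Affymetrix mouse gene arrays, from about 100 ng of total RNA each per the labels. The authors deposited log2 values, judged so from their range of 2.02 to 14.52, made with Affymetrix Expression Console per the submitters' processing notes; the sources used here state neither its version nor the summarization or normalization. The values were not scaled again. An array gives no read depth, and the number of arrays limits precision. Of 35557 probe sets 21789 had 1 symbol in the platform annotation, 1621 several and 12147 none. For 999 genes with more than 1 probe set the one with the highest mean was kept, which left 19938 genes.

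limma 3.58.1 (R 4.3.3; lmFit, eBayes) fitted line plus induction with 8 residual degrees of freedom, and 1 mean per group with 6 for single lines and for the moderated F test of their difference. Adjustment was by Benjamini-Hochberg over all genes, at 0.05. Lists (37, with 667 of 717 entries measured) are described by counts and medians, with no test. Members and lists were chosen with earlier results of these data known. Genes were named by rule: the 12 highest and 12 lowest changes among called genes apart in every line, 4 per direction with the most even change, 8 with the smallest interaction p, 4 called in opposite directions, up to 3 per list and direction, and Smarca4, Chd4 and Smarca5. The marker genes of the opening, Mcoln1, Cd68, Mcm5, Mcm6, Rrm1, Ccne1 and Atf4 were chosen after their values were seen. The 5 control arrays are not used here. Alternatives tried were other fits, scalings, filters and probe choices, and the omission of each array and each line.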

Additional observations from a re-analysis of the deposited data

Results flagged for a closer look

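The induction of 32 genes named by rule differed between the dnBrg1, dnChd4 and dnSnf2h lines in limma's F test over all genes. Each of them is given with its adjusted p. Cd68 and Atp6v1a, named outside the rules, also differed and are given in their own paragraphs. Among genes with a large common rise these were Adgrg1 (6.12e-06), Aldh1a1 (0.000119), Mcam (7.66e-07), Gstm5 (6.16e-06), Lcp1 (2.36e-06), Dhx40 (0.0141) and Gdf11 (0.0101). Dhx40 rose most in dnBrg1 (2.12, against 1.78 in dnChd4 and 1.17 in dnSnf2h), and Aldh1a1 (3.39), Gstm5 (3.21) and Gdf11 (2.14) rose most in dnChd4. Among genes with a large common fall they were Cxcl5 (0.0018), Cxcl3 (0.00147), Slc6a9 (0.00711) and Slc1a5 (0.00597). Cxcl5 changed by -2.25 in dnBrg1, -1.11 in dnChd4 and -1.41 in dnSnf2h, and Cxcl3 by -0.78, -1.93 and -2.01 in the same order.

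The smallest values belonged to Pld4, Csnk1g1 and Ms4a4d (7.66e-07 each), Auts2 (1.33e-06) and Susd2 (2.78e-06). Genes called in opposite directions in 2 lines were Sting1 (6.12e-06), Tnnt2 (2.12e-05), Mmp19 (0.000101) and Msln (0.000249). Chd4 differed at 6.16e-06, from its rise in dnChd4 cells.

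Members of the gene lists that differed were Ddit4 (0.0134), Saa3 (0.00814), Fosl1 (0.0228), Plau (0.0244), Adamts1 (0.000992), Cdkn2d (0.000803), Acta2 (0.000229), Tagln (0.000119), S100a4 (0.0123), Cd74 (1.32e-05) and Cd36 (7.06e-05). Ddit4 was at -0.05 in dnBrg1, -0.80 in dnChd4 and -1.11 in dnSnf2h. Saa3 changed by -2.03, -0.54 and -1.29 in the same order. Cd36, a fatty acid receptor gene, rose by 1.41 in dnBrg1 and stayed dim in the other lines. Cd74, the invariant chain gene, rose by 1.5 in dnChd4.

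Leaving out 1 array took the difference past 0.05 for 9 of these genes. For Ddit4 this happened without any of the 4 dnBrg1 arrays (0.0644 to 0.0996). For Dhx40 it happened without dnBrg1 repressed replicate 1, either dnBrg1 induced array or dnSnf2h induced replicate 2 (0.0597 to 0.0873). For Gdf11 it happened without dnBrg1 repressed replicate 1, dnBrg1 induced replicate 2, dnChd4 repressed replicate 2 or dnChd4 induced replicate 1 (0.0552 to 0.0675). For Fosl1 it happened without dnBrg1 repressed replicate 2, either dnBrg1 induced array, dnChd4 repressed replicate 2 or either dnChd4 induced array (0.0573 to 0.163). For Plau it happened without any dnBrg1 array, either dnChd4 repressed array or dnChd4 induced replicate 1 (0.0733 to 0.174), and for S100a4 without any dnBrg1 array, dnChd4 repressed replicate 2 or dnChd4 induced replicate 1 (0.059 to 0.0914). Saa3 gave 0.0566 without dnChd4 repressed replicate 2, Slc1a5 0.0594 without dnBrg1 induced replicate 2, and Slc6a9 0.051 without dnBrg1 induced replicate 1.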

How the results depend on the processing

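The common count of 5734 stayed within 1.5 times under all settings tried, from 3896 without the line block to 6511 with array weights, and no gene called in both changed direction. It was 5874 after quantile normalization and 5411 after centring each array on its median, with 3531 higher and 1880 lower, and 5152 to 5871 without 1 array. The interaction count of 220 was less stable, with 349 under the replicate block, 338 with array weights, 21 without the dnBrg1 line, 65 without dnChd4, 445 without dnSnf2h, and 95 (without dnBrg1 induced replicate 2) to 574 (without dnSnf2h repressed replicate 1) when 1 array was left out. Genes called in all 3 lines numbered 881 (without dnBrg1 induced replicate 2) to 1638 without 1 array. The held-out shares ran from 90.5 to 94.1% in dnBrg1, 93.8 to 97.3% in dnChd4 and 90.4 to 95.9% in dnSnf2h without 1 array, with 96.5% in dnChd4 after centring and 95.4% in dnSnf2h after quantile normalization. Msln alone reversed, to a common change of -0.243 without the dnBrg1 line (adjusted p = 0.0303). Replicate numbers were checked for pairing: differences between replicates correlated across genes with r of 0.0166, 0.136 and 0.313 between induced and repressed cells of dnBrg1, dnChd4 and dnSnf2h, so the numbers were not taken as pairs, and the replicate block gave 5734 common calls, 5502 of them shared. The cause of these changes was not tested.

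Of 1956 checks of a named gene's common change under other settings 1891 kept their side of the threshold, and of 2136 without 1 array 2072 did. Common calls lost without at least 1 single array were those of Cdkn2d, Cldn4, Cry2, Csn3, Krt7, Ms4a4d, Ndufv1, Pld4, Sdhd, Smtn and Susd2. Of 148 list counts under the other scalings 140 stayed within 1.5 times. Precision is limited by 2 arrays per group, and no background values were used. Below the dim bound lay the repressed mean of 63 genes called higher and the induced mean of 213 called lower, so their size of change is known less well.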

Other observations

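Gene families outside the lists above were counted after the values had been seen, by symbol alone, and are described without a test. Of 24 V-ATPase subunits and accessory proteins, which acidify lysosomes and endosomes and of which 4 are also in the lysosome list, 15 were called higher and 0 lower, with a median of 0.39, against 16% of all genes called higher. Atp6v1a, the catalytic subunit, rose by 1.39 (SE 0.125; limma adjusted p = 7.14e-07) and Atp6v0b by 0.97 (SE 0.0548; adjusted p = 1.42e-08). The rise of Atp6v1a differed between lines (limma F test, adjusted p = 0.00971). It was 0.80 in dnBrg1, 1.80 in dnChd4 and 1.55 in dnSnf2h. Of 59 Rab GTPases, switches of membrane traffic, 30 were called higher and 5 lower, against 16% and 12.8% of all genes. Rab2b rose by 0.86 (SE 0.0614; adjusted p = 7.75e-08), and Rab7b changed by -0.72 (SE 0.0999).

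Of 20 nucleoporins, the proteins of the nuclear pore, 13 were called lower and 0 higher, with a median of -0.32, against 12.8% of all genes called lower. Nup62 changed by -0.79 (SE 0.0703; adjusted p = 6.46e-07). Of 63 cytosolic ribosomal proteins 31 were called lower and 0 higher, with a median of -0.17. That count was 22 after quantile normalization and 20 after centring, and many of these genes have near-identical pseudogene copies, so single values are uncertain. Of 77 mitochondrial ribosomal proteins 17 were called higher and 12 lower, against 16% and 12.8% of all genes. After quantile normalization 14 were higher and 19 lower, so the balance depends on the scaling and no direction is read for the family. Among 345 Zfp zinc finger genes 41 were higher and 49 lower, near the shares of all genes, with a median of -0.01. After centring 55 were higher and 34 lower.

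The endothelial cadherin gene Cdh5 separated lines and not states. It read 4.37 and 4.38 in induced against 3.86 and 4.47 in repressed dnBrg1 cells, 8.33 and 8.18 against 8.12 and 8.08 in dnChd4 cells, and 7.76 and 8.04 against 7.79 and 8.0 in dnSnf2h cells. Its common change did not pass, and Pecam1 stayed dim in all lines.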
